A study of Mus musculus with 35 samples.

Results

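The 40 genes described here encode nuclear-made subunits of the mitochondrial respiratory chain and enzymes of the citric acid cycle. They were taken from a fixed list of symbols, each read from 1 probe set, the one with the highest mean over the 35 arrays. All 40 were on the array, among 18193 genes with a probe set assigned to a single symbol. Of them 16 belong to complex I, 4 to complex II, 4 to complex III, 5 to complex IV, 4 to the ATP synthase and 7 to the citric acid cycle. Membership follows pathway and uses no measured difference between samples, but the list was chosen with earlier results of these data known.

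The arrays measured total RNA of flow-sorted blood-forming and immune cells from male C57BL/6J mice that were 8 weeks old, with no treatment or altered allele in the labels. One block of 20 arrays, here the lineage arrays, holds bone marrow progenitors and monocytes with spleen granulocytes: granulocyte-monocyte progenitors (GMP, 1 array), monocyte-dendritic cell progenitors (MDP, 1), common monocyte progenitors (cMoP, 4), inflammatory monocytes (2), SatM (2), SMP (4), basophils (2), eosinophils (2) and neutrophils (2). SatM are a monocyte population that the labels link to fibrosis, and SMP are the cells that the labels name as their progenitor. For both cMoP and SMP, 2 of the 4 arrays carry "WT" in their titles, and what sets them apart is not stated. The other 15 arrays, here the panel, hold 1 array for each cell type and tissue (2 for lung macrophages): SatM (lung, blood, marrow and spleen), marker-negative monocytes that lack Ly6C, Msr1 and Ceacam1 (blood, marrow and spleen), monocytes dull for Msr1 and Ceacam1 (lung and marrow), the remaining Ly6C-negative monocytes (blood and spleen), M2-like resident macrophages (marrow and spleen) and a pair of resident macrophage sorts of the lung. Nothing states whether arrays of 1 group came from separate mice, so p-values measure only the spread between these samples, which may be technical.

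The citric acid cycle oxidises acetyl groups in the mitochondrial matrix and passes their electrons to carriers. Complexes I to IV move those electrons to oxygen and pump protons, and the ATP synthase uses the proton gradient to make ATP. Complex II, succinate dehydrogenase, belongs to both pathways. Mature neutrophils are known for few mitochondria and a reliance on glycolysis, whereas eosinophils, monocytes and macrophages respire more. In sorted bulk samples, fewer cells of a type and less RNA per cell cannot be told apart.

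Values are log2 signals as deposited, with a common floor of 2.30. The lowest value of any of the 40 genes on any array was 3.04, so none reached the floor, and all 40 passed the filter on low values in both blocks. Several sorts carried markers that their labels do not name. All 5 basophil markers were above the floor on all 4 SMP arrays (summed level 60.66 to 64.06, against 64.95 to 65.50 in basophils), with Fcer1a at a mean of 13.17, while the progenitor and monocyte genes Kit, Irf8, Csf1r and Cx3cr1 averaged 2.55, 3.84, 5.16 and 4.01 and Flt3 was at the floor. Other genes of the progenitor and monocyte lists were well above the floor in SMP, with Mpo at 12.04, Ccr2 at 11.07, Cd34 at 7.13 and F13a1 at 7.08. These genes were also well above the floor in basophils, at means of 12.9, 10.1, 7.15 and 10.07 in that order. In SMP, Elane and Fn1 averaged 2.98 and 3.71. The basophil markers and the low genes go against the label of a monocyte progenitor, so SMP below means the cells labelled so. The eosinophil arrays held all 5 eosinophil markers (55.44 to 58.50) and also all 4 GMP markers (38.90 to 38.99, against 13.09 to 19.02 in neutrophils), with Mpo at a mean of 12.55 and Kit at 8.31. The marker-negative cells held all 5 natural killer markers above the floor (summed level 57.94 to 65.38), and the M2-like macrophages and other Ly6C-negative cells held all 4 B cell markers measured. The 3′ minus 5′ gap of the actin and Gapdh control probes, which widens as RNA shortens, was 5.90 and 6.27 in eosinophils and 5.10 in the marrow Msr1-dull Ceacam1-dull array, against 0.79 to 3.30 elsewhere.

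Across the 9 cell types of the lineage arrays the members moved largely as a block, high in early progenitors and low in SMP, SatM and neutrophils. Each gene was centred on its own mean over the 20 arrays, and the median of the 40 was then taken on each array. That median was 0.99 in GMP and 0.68 in MDP. It was 0.80 and 0.68 in the cMoP arrays not titled WT, and -0.15 and 0.59 in those titled WT. Inflammatory monocytes were at 0.33 and 0.44, basophils at 0.13 and 0.21 and eosinophils at 0.14 and 0.31. SatM were at -0.43 and -0.37, neutrophils at -0.56 and -0.36, and SMP between -1.28 and -0.34. The SMP arrays did not overlap with the cMoP arrays, nor SatM with inflammatory monocytes, whereas SatM, SMP and neutrophils overlapped one another in range. The same median over all 12077 genes tested stayed between -0.25 and 0.06.

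**Figure D1:**
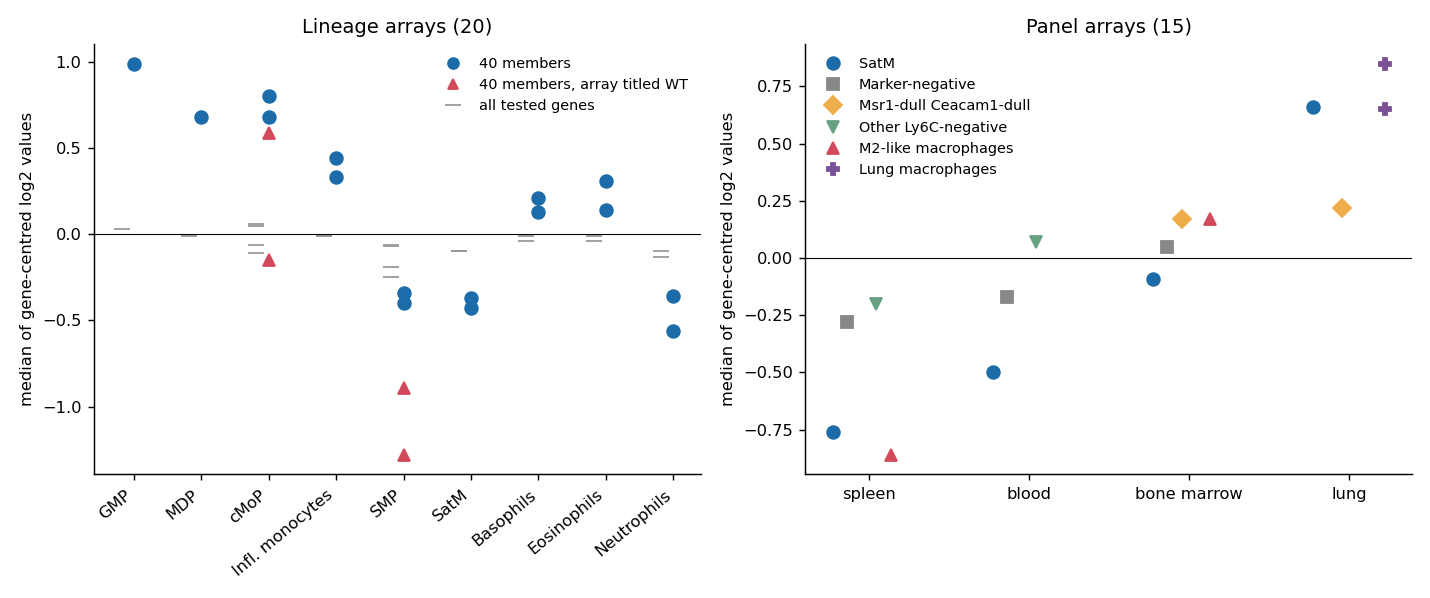
Median over the 40 members of gene-centred log2 values (y axis) on each array, for the 20 lineage arrays by cell type (left; triangles are arrays titled WT, grey dashes the same median over all tested genes) and the 15 panel arrays by tissue (right). GMP (0.99) and cMoP lie high, SMP, SatM and neutrophils low, and 2 lung macrophage arrays (0.65 and 0.85) and lung SatM (0.66) stand highest in the panel.

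Of the 40 members, 35 differed among the 9 cell types (F-test in limma, Benjamini-Hochberg adjusted p under 0.05). The background is high, since 73.0% of all genes tested passed the same test. The 5 that did not pass were Ndufb9, Ndufs1, Sdhb, Cox7a2 and Ogdh. By cell-type mean, 22 members were highest in GMP and 8 in MDP, each a single array. At the other end, 19 were lowest in SMP, 11 in neutrophils, 6 in eosinophils and 4 in SatM. In eosinophils, the arrays with the widest control probe gap (5.90 and 6.27) and with GMP markers, 8 members were highest. Among them were Cox5a and Cox6c of cytochrome oxidase and the citrate synthase gene Cs, on the probe sets used. A further probe set of each did not place eosinophils highest. It gave 9.94 against 10.92 in cMoP for Cs, 11.53 against 11.70 in cMoP for Cox5a, and 11.30 against 11.34 in basophils for Cox6c. Another Cox5a probe set gave 12.05 in eosinophils against 11.35 in cMoP.

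The width of the pattern varied from gene to gene. Cs, which makes citrate, spanned only 0.97 between its highest and lowest cell-type mean on the probe set used. A further Cs probe set of lower signal spanned more, with means of 8.81 in cMoP and 6.79 in basophils. Fh1, the fumarase gene, spanned 5.48, and Idh3a, the catalytic subunit of NAD-dependent isocitrate dehydrogenase, spanned 6.24. Over the 9 cell-type means, 769 of the 780 pairs of members correlated above 0, with a median r of 0.63. The median r was 0.79 among the 4 ATP synthase genes and 0.30 among the 4 genes of complex III. These correlations share the same arrays and are a description. Ndufb5, an accessory subunit of complex I, followed the mean of the other members most closely (r = 0.96 over 9 cell types), and Cox6c followed it least (r = 0.46).

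**Figure D2:**
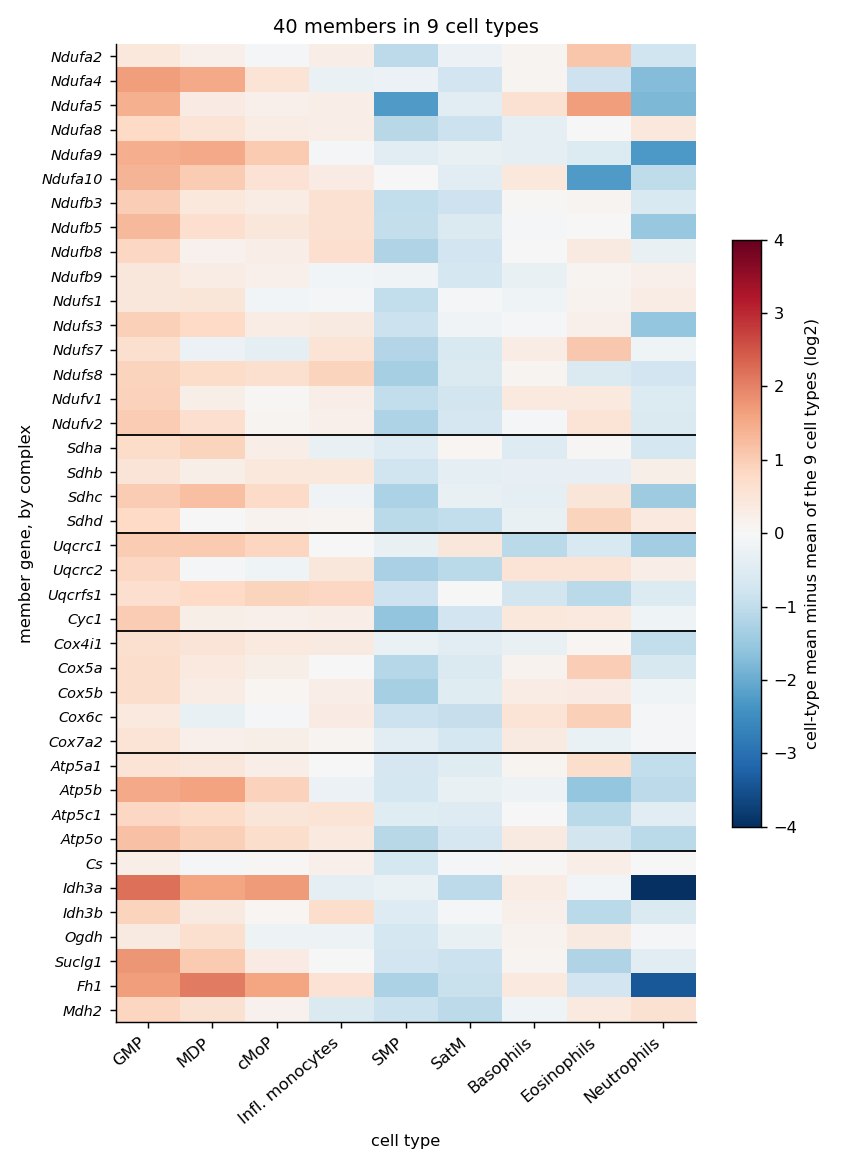
Mean log2 signal of each of the 40 members (rows, by complex) in each of the 9 cell types (columns), minus the member's mean over the cell types; red is higher and blue lower. GMP, MDP and cMoP columns are mostly red and the SMP column mostly blue, and Idh3a and Fh1 in neutrophils are the deepest blue cells.

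The comparison of SMP with cMoP sets against each other the 2 marrow populations that the labels call monocyte progenitors. Members of every complex were lower in SMP. Of the 40, 26 were called lower and none higher (limma, adjusted p under 0.05 and a log2 difference of at least 1), against 22.7% of all genes tested called lower and 12.8% called higher. All 40 fitted differences were below 0, with a median of -1.17, where the median of all genes was -0.09. The 4 SMP arrays lay wholly below the 4 cMoP arrays for 15 members, as they did for 18.7% of all genes. Calls fell on 11 of 16 genes of complex I, 3 of 4 of complex II, 4 of 4 of complex III, 2 of 5 of complex IV, 2 of 4 of the ATP synthase and 4 of 7 of the citric acid cycle.

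Fh1 showed the largest difference. Its log2 signal was 11.31 and 11.03 on the cMoP arrays not titled WT, and 10.22 and 10.88 on those titled WT. In SMP it was 8.49 and 8.91, and 7.08 and 7.60 in the arrays titled WT. Every SMP array was lower than every cMoP array, by a fitted -2.84 (SE 0.26, adjusted p = 2.03e-06 in limma). Idh3a was at 8.66, 8.60, 9.34 and 9.30 in cMoP and at 7.11, 7.39, 6.66 and 6.98 in SMP, again with no overlap (-1.94, SE 0.29, adjusted p = 0.000127). Its other well-detected probe sets fell further, by 3.86 and 3.52 on the log2 scale. Mdh2, the mitochondrial malate dehydrogenase of the last step of the cycle, differed by -1.03, and Suclg1, a succinyl-CoA ligase subunit, by -1.12. Cs and Idh3b differed by -0.76 and -0.62 and missed the size threshold, and Ogdh, the E1 enzyme of the oxoglutarate dehydrogenase complex, differed by -0.51 (adjusted p = 0.193 in limma).

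In complex II, Sdhc, a membrane anchor of succinate dehydrogenase, was at 8.28, 7.97, 8.38 and 9.05 in cMoP. In SMP it was at 7.27, 5.31, 6.35 and 6.62, so the groups did not overlap (-2.04, SE 0.39, adjusted p = 0.000929 in limma). Its second probe set differed by -0.89, less than the one used. The other anchor, Sdhd, differed by -1.23, with -2.15 from its second probe set, and the iron-sulfur subunit Sdhb by -1.22. Sdha, the catalytic flavoprotein, differed by -0.76 and was not called.

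In complex III, Cyc1, the haem-carrying cytochrome c1, was at 9.42, 9.45, 7.89 and 8.53 in cMoP and at 7.27, 6.81, 6.53 and 7.58 in SMP. The lowest cMoP array and the highest SMP array, both titled WT, still did not overlap (-1.78, SE 0.30, adjusted p = 0.00038 in limma). Uqcrfs1, the Rieske iron-sulfur protein, was at 10.35, 10.27, 10.23 and 10.61 in cMoP and at 8.60, 8.99, 8.64 and 8.26 in SMP, with a wide gap between the groups and little spread within them (-1.74, SE 0.16). The core proteins Uqcrc1 and Uqcrc2 differed by -1.18 and -1.15.

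Ndufa5, an accessory subunit of the peripheral arm, was at 11.80, 11.62, 9.19 and 10.52 in cMoP and at 10.13, 8.99, 6.28 and 7.77 in SMP. The groups overlapped across the sets but not within either (-2.49, SE 0.39, adjusted p = 0.000223 in limma). Ndufs8, which carries iron-sulfur clusters, was at 10.95, 11.04, 9.76 and 10.49 in cMoP and at 8.72, 10.24, 7.47 and 7.88 in SMP, with only the second of the SMP arrays reaching the cMoP range (-1.98). Ndufa9 (-1.47), Ndufa8 (-1.42) and Ndufs3 (-1.14) had no overlap. The 5 members of complex I that were not called were Ndufa4, Ndufa10, Ndufb9, Ndufs1 and Ndufs7, between -0.87 and -0.34. In recent work Ndufa4 is placed with complex IV.

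In the ATP synthase, Atp5o, the stalk subunit that confers oligomycin sensitivity, was at 12.41, 12.40, 11.32 and 12.32 in cMoP and at 10.90, 10.86, 9.03 and 10.47 in SMP (-1.79, SE 0.29, adjusted p = 0.000266 in limma). The lowest cMoP array was still above every SMP array. Atp5b, the catalytic beta subunit, differed by -1.64. Atp5a1 (-0.93) and Atp5c1 (-0.98) missed the size threshold. In complex IV, Cox5a and Cox5b were called (-1.35 and -1.43), whereas Cox4i1, Cox6c and Cox7a2 differed by -0.68, -0.82 and -0.65.

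**Figure D3:**
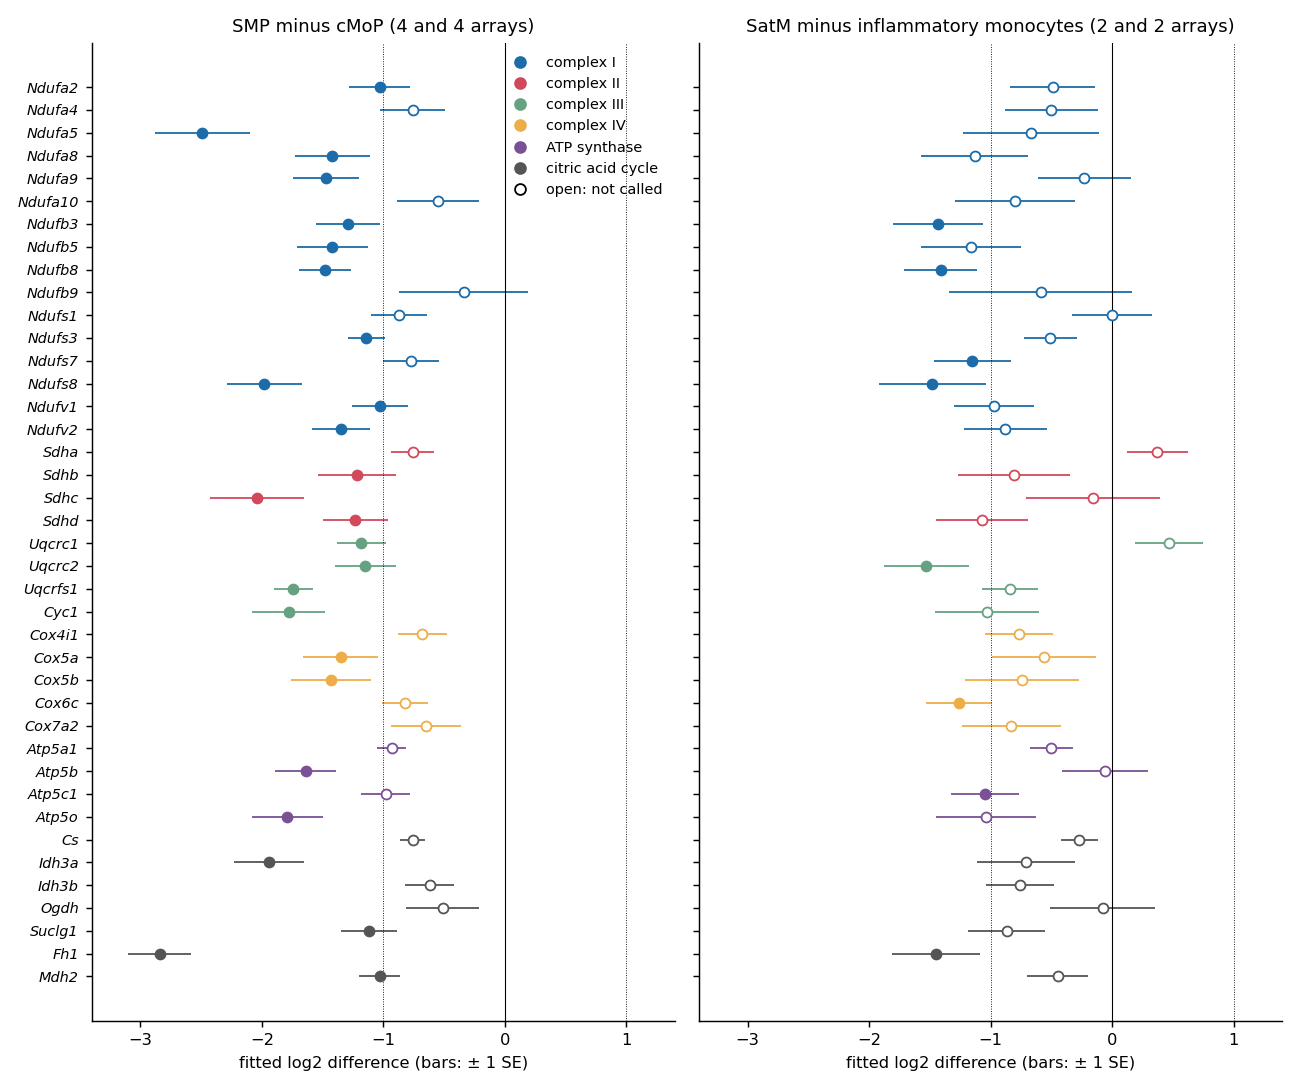
Fitted log2 differences with bars of ± 1 SE (x axis) for each of the 40 members (y axis, coloured by complex) in SMP minus cMoP (left) and SatM minus inflammatory monocytes (right); filled points were called, and dotted lines mark differences of 1. All 40 points lie below 0 on the left, where 26 are filled, and 37 on the right, where 8 are filled.

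The arrays titled WT and the others gave the difference separately. Among arrays titled WT, both SMP arrays were below both cMoP arrays for 34 members (33.5% of all genes), and among the other arrays for 38 (38.2%). This held in both sets at once for 33 of 40 members and for 25.9% of all genes. The member medians were -1.29 and -1.11 in the 2 sets, and -0.05 over all genes in each. When each set was fitted alone, with 2 arrays against 2, 5 members were called in the WT-titled set and 17 in the other. No member differed between the sets in the limma interaction test (adjusted p under 0.05), and 3 did at an unadjusted p under 0.05, Suclg1, Cyc1 and Idh3a, where 1.81% of all genes passed the adjusted test. Ndufb9 was the member with opposite signs of some size, at -1.28 in the WT-titled set and 0.59 in the other. In that other set SMP array 2 was at 12.21, while SMP array 1 (9.12) was below both cMoP arrays (10.07 and 10.08). Over both sets a further Ndufb9 probe set differed by -1.05, where the one used differed by -0.34.

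Markers of other cells moved with this comparison. The 5 basophil markers summed to 60.66 to 64.06 in SMP and 19.76 to 22.72 in cMoP, where Fcer1a, Ms4a2 and Cpa3 were at the floor. The 4 erythroid markers measured summed to 12.89 to 22.76 in SMP and 9.20 to 10.76 in cMoP, with Epor at the floor in both. Eosinophil markers summed to 29.00 to 39.42 in SMP and 11.87 to 14.52 in cMoP, where 4 of the 5 were at the floor. Neutrophil markers summed to 33.26 to 43.89 and 24.00 to 27.66, with Cxcr2 at a mean of 10.58 in SMP and at the floor in cMoP. Platelet markers summed to 21.21 to 26.56 and 13.37 to 14.52, with Itga2b at means of 11.08 and 3.53. Markers of inflammatory monocytes (23.86 to 31.78 against 47.23 to 51.12) and of cMoP (9.45 to 16.74 against 33.09 to 37.92) were lower in SMP. Their part in the result was not tested. The control probe gap was 1.20 to 1.54 in SMP and 0.95 to 1.12 in cMoP among arrays titled WT, and 1.27 to 2.82 against 1.84 to 1.89 among the others. With that gap as a covariate, 24 members were called lower. When the median of values above the floor was equalised between arrays, which moved the median of all genes from -0.09 to 0.02, 17 members were called lower and none higher. Over all genes that scaling gave 1957 higher and 2147 lower calls, where the values as deposited gave 1541 and 2744.

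The upstream sequence of members called lower in SMP is shown for 3 genes whose promoters hold a match to the NRF1-type motif, a binding motif of nuclear respiratory factor 1 long tied to genes of this pathway. Sequences are from RefSeq (GRCm38.p6), which gave a window for 30 of the 40 members. Each is 100 bases from the minus strand upstream of the start, 5′ to 3′, with the motif in capitals. Ndufa5 spans chr6:24527691-24527790, Ndufa8 spans chr2:36049339-36049438 and Sdhd spans chr9:50603874-50603973.
Ndufa5: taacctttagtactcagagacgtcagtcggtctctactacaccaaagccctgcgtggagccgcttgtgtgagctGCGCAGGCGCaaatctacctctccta
Ndufa8: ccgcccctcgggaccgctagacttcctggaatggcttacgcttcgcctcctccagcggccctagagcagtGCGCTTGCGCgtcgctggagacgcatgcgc
Sdhd: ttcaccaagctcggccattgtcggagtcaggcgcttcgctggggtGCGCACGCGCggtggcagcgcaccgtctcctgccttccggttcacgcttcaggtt

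The motif was read as GCGCA and GCGC parted by any 1 base, on either strand, in the 250 bases before the start. It occurred in 5 of the 30 members (16.7%), the 3 above with Atp5c1 and Sdha, in 4.23% of all 27025 genes with a window and in 9.30% of the 9774 of them that were tested here. Of these 5, Ndufa5, Ndufa8 and Sdhd were called in the comparison of SMP with cMoP, and Atp5c1 and Sdha were not. The ETS-type motif CCGGAAG was found in Ndufs3 and Sdhd, 6.7% of members, and in 15.6% of tested genes. The YY1-type motif AAGATGGC and the ERR-type motif TCAAGGTCA were found in no member window, and in 2.58% and 0.338% of tested genes. The stretch of Sdhd also holds its ETS-type match, on the other strand and apart from the NRF1-type match, and Ndufa5 has a second listed start, from which the match lies further upstream. A match describes letters in these windows.

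Other mitochondrial genes were counted from lists beside the members, against the 22.7% of all genes called lower and 12.8% called higher. Of 16 mitochondrial ribosomal proteins, 14 were lower in SMP than in cMoP and none higher, with a median of -1.95. Mrps28 differed by -3.17 and Mrpl12 by -2.93 (adjusted p = 3.90e-05 and 8.91e-05 in limma). Of 27 further respiratory chain subunits tested, 15 were lower, among them Cycs, cytochrome c itself (-2.61), and of 11 further ATP synthase genes, 8 were lower. The 13 tested genes of the rest of the citric acid cycle and pyruvate entry had a median of -0.58, with 4 lower, among them Idh2 (-1.62), and 1 higher, Dlst of the oxoglutarate dehydrogenase complex (1.05), whose arrays overlapped. Of the 4 tested isoforms of restricted tissues 1 was lower. The shares for assembly factors, regulators and glycolysis lay nearer to the background. Of 17 assembly factors 6 were lower, led by Ndufaf4 of complex I assembly (-2.86). Of 13 regulators 4 were lower and 1 higher. Pprc1, a coactivator related to PGC-1, was at 8.59, 8.38, 8.34 and 8.83 in cMoP and at 5.04, 5.91, 4.70 and 5.39 in SMP (-3.28, adjusted p = 3.40e-06), and Esrra, the oestrogen-related receptor alpha, was higher by 2.14, with overlapping arrays. Glycolysis was split, with 3 of 11 genes higher and 2 lower. The 3 were Pfkp (2.35), the glucose transporter gene Slc2a1 (1.26) and Hk2 (1.13), and the 2 were Pgam1 (-1.10) and Tpi1 (-1.08).

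The comparison of SatM with inflammatory monocytes sets the 2 mature monocytes of the marrow against each other. Most members were lower in SatM, and few differences passed the test. For 35 of 40 members both SatM arrays were below both inflammatory monocyte arrays, as for 35.9% of all genes, and 8 were called lower and none higher, where 6.47% of all genes were called lower. The median member difference was -0.79 (all genes -0.02). Uqcrc2 was at 12.56 and 12.66 in inflammatory monocytes and at 11.27 and 10.89 in SatM (-1.53, SE 0.35, adjusted p = 0.0149 in limma). Ndufb8 was at 11.95 and 11.66 and at 10.64 and 10.15 (-1.41), and Ndufb3, like it an accessory subunit of complex I, at 11.84 and 11.72 and at 10.45 and 10.24 (-1.43). Fh1 was at 9.83 and 9.86 and at 8.56 and 8.23 (-1.45). Ndufs8 differed by -1.48, Cox6c by -1.26, Ndufs7 by -1.15 and Atp5c1 by -1.05. The signals of these 8 genes did not overlap between the groups on the probe sets used. The second Atp5c1 probe set went the other way, at a mean of 8.16 in SatM and 7.71 in inflammatory monocytes. Of 35 further probe sets of 23 members, those with a mean of at least 5, 8 had the opposite sign to the one used. Sdha and Uqcrc1 went the other way, at 0.37 and 0.47, and were not called.

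These 8 calls rested on few arrays. Without inflammatory monocyte array 1 or SatM array 2 no member was called, without inflammatory monocyte array 2 it was 1, and without SatM array 1 it was 4. With no term for the WT-titled set the count was 0, with all genes kept it was 4, and 21 of 40 members were below 0 at an unadjusted p under 0.05. The control probe gap was 1.82 and 1.85 in SatM and 2.29 and 2.32 in inflammatory monocytes, and 6 members were called with it as a covariate. Of the 27 further respiratory chain subunits 10 were lower in SatM, among them Ndufa1 (-1.83), Ndufc2 (-1.63), Ndufa6 (-1.54) and Cycs (-1.54). Of the other lists, 1 of 11 further ATP synthase genes, 2 of 13 further citric acid cycle and pyruvate genes, 2 of 17 assembly factors, 1 of 16 mitochondrial ribosomal proteins and 1 of 11 glycolysis genes were lower, and 1 of 13 regulators was higher. Eosinophil markers moved with this comparison, at a summed 29.40 to 33.29 in SatM against 12.14 to 12.52 in inflammatory monocytes. Prg2 and Epx averaged 12.10 and 9.87 in SatM and were at the floor in inflammatory monocytes, while Ccr3 and Il5ra were at the floor in both, and their part in the result was not tested. Among isoforms of restricted tissues, Cox6b2, known from testis, was at 9.0 and 8.48 in inflammatory monocytes and at 4.55 and 3.03 in SatM (-4.95, adjusted p = 9.23e-06 in limma).

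Between cMoP and inflammatory monocytes, 39 of 40 fitted differences were below 0, with a median of -0.41 (all genes -0.01). Only 3 members were called lower in the monocytes, a share near the 8.25% of all genes called lower. The monocyte arrays lay below all cMoP arrays for 9 members (20.6% of all genes) and above them for none (25.3%). Idh3a was at 6.97 and 6.90 in the monocytes, below every cMoP array (fitted -1.98, SE 0.38, adjusted p = 0.00287 in limma). Fh1 (-1.51) and Atp5b (-1.22) were the others. Fitted differences allow for the WT-titled set, so they can exceed the gap between plain means or differ from it in sign. By plain means over all cMoP arrays, the probe sets used gave both directions. Ndufs7 (0.94), Idh3b (0.61) and Uqcrc2 (0.6) were higher in the monocytes, and Idh3a (-2.04) and Sdhc (-0.9) were lower. The nearly uniform sign of the fitted differences thus depends on the term for that set. Without either inflammatory monocyte array Idh3a alone was called. Its 2 other well-detected probe sets differed by -2.97 and -2.87 between the plain means. Over the members, 20 of 35 further probe sets with a mean of at least 5 were lower in the monocytes by plain means. By the same plain means, 10 of the 35 had the opposite sign to the one used.

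Between SMP and SatM the fitted differences, which allow for the WT-titled set, showed no common direction. Of the members 19 were above 0 and 21 below, with a median of -0.06. The member median per array was -0.43 and -0.37 in SatM and -0.34 and -0.4 in the SMP arrays not titled WT. In the SMP arrays titled WT it was lower, at -1.28 and -0.89. Uqcrc1 was called higher in SatM (1.28, adjusted p = 0.00246 in limma), where calls over all genes came to 12.8% upward and 14.0% downward. Both SatM arrays lay above all SMP arrays for 6 members (19.9% of all genes) and below them for none (16.7%). The Uqcrc1 SatM signals, at 8.52 and 7.91, overlapped the SMP arrays, at 7.03, 6.83, 7.76 and 8.17, and the call was lost without SatM array 1. Without SMP array 1, 2 members were called. GMP and MDP against cMoP gave no call among the members in limma and 5 above 0 at an unadjusted p under 0.05, where 2.87% of all genes were called higher and 3.35% lower. Without either WT-titled cMoP array 1 member was called. The isoform Cox6a2, known from heart and skeletal muscle, was at 7.76 in MDP and at 3.38 in GMP, close to cMoP at 3.04 to 3.46.

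Basophils and SMP share the basophil markers named above, and the members were mostly higher in basophils. For 23 of 40 the 2 basophil arrays were above all 4 SMP arrays, as for 17.8% of all genes, and the median fitted difference was 0.53 (all genes 0.02). Only Cyc1 was called, at 9.12 and 8.96 in basophils (1.69, SE 0.40, adjusted p = 0.0401 in limma), where 2.09% of all genes were called higher and 0.753% lower. Both basophil arrays lay below all SMP arrays for 1 member (7.61% of all genes). That call was lost without either basophil array, and 2 members were called without SMP array 1, SMP array 2 or the first WT-titled SMP array. The control probe gap was 2.37 and 3.30 in basophils. Neutrophil markers summed to 45.59 to 47.74 and erythroid markers to 21.78 to 29.90 in basophils, and their part was not tested.

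**Figure D4:**
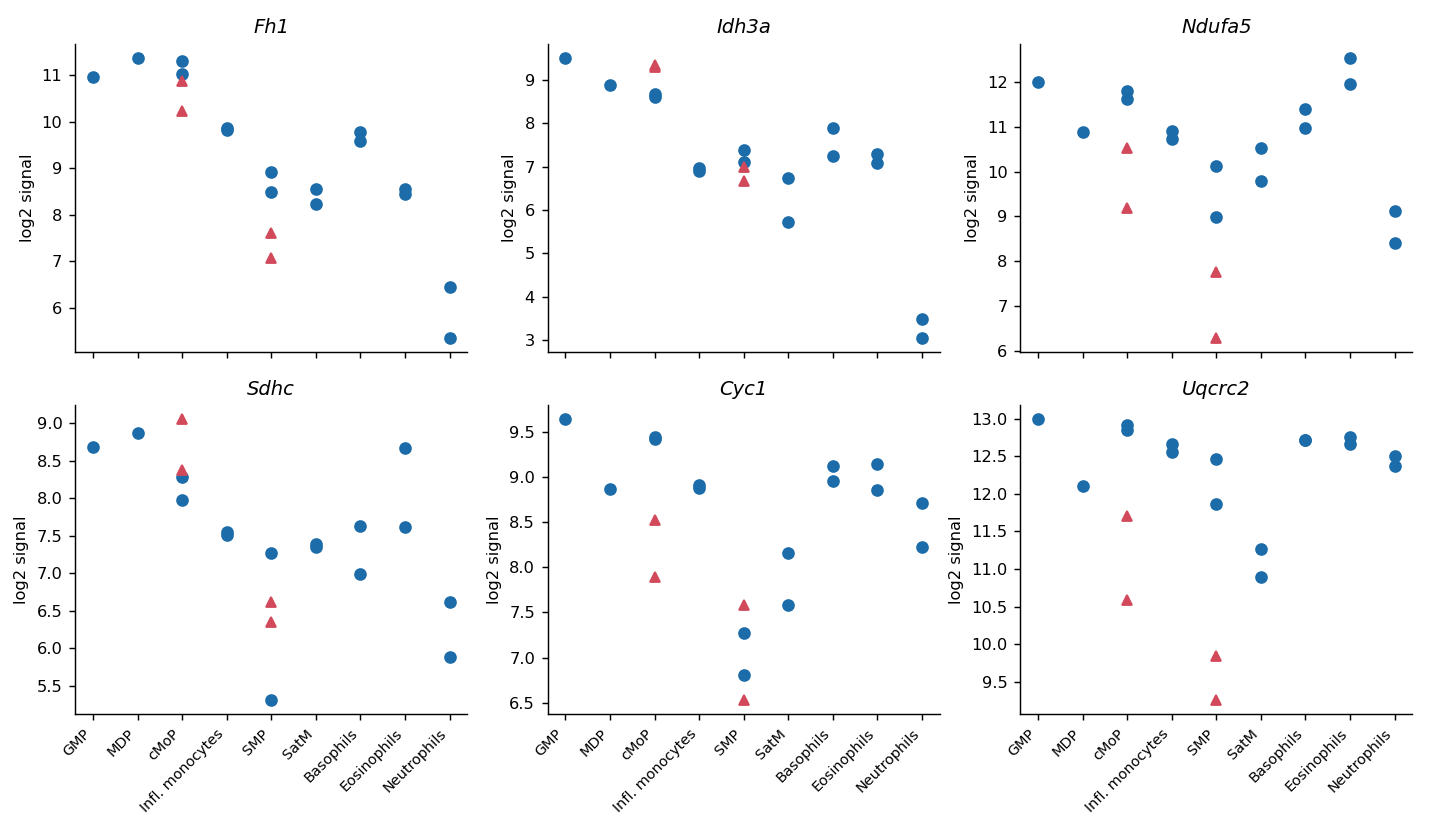
Log2 signal (y axis, scaled separately for each gene) of 6 members on each of the 20 lineage arrays by cell type; triangles are arrays titled WT. Fh1 and Idh3a are lowest in neutrophils (5.34 and 6.44, 3.04 and 3.49). Ndufa5 has its highest cell-type mean in eosinophils (11.94 and 12.53), with the single GMP array at 12.0 between them. Uqcrc2 is lower on the triangles than on the other arrays of the same cell type.

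Neutrophils had the lowest signals of a subset of the members. Against eosinophils 14 members were lower and none higher, where 23.1% of all genes were called lower and 17.4% higher, and the median was -0.61 (all genes -0.02). Against basophils 10 were lower and none higher, where 21.9% of all genes were lower and 15.6% higher. Both neutrophil arrays lay below both eosinophil arrays for 26 members (40.5% of all genes) and below both basophil arrays for 31 (40.4%). The shares called are not far from the background, so single genes are described by their size. Idh3a was at 3.04 and 3.49 in neutrophils, 7.08 and 7.29 in eosinophils and 7.25 and 7.89 in basophils. Its fitted differences were -3.92 and -4.31 (SE 0.40 each, adjusted p = 7.49e-06 and 3.15e-06 in limma). The further well-detected Idh3a probe sets averaged 2.40 and 2.45 in neutrophils and 2.62 and 2.69 in eosinophils, near the floor in both, and with probe sets averaged the difference from eosinophils was -1.10 (adjusted p = 0.130). Against basophils, at 4.26 and 4.56, those probe sets differed by -1.87 and -2.11.

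Fh1 was at 5.34 and 6.44 in neutrophils, 8.45 and 8.56 in eosinophils and 9.59 and 9.77 in basophils (-2.61 and -3.79, SE 0.36, adjusted p = 8.78e-05 and 3.99e-06 in limma). Ndufa5 was at 8.41 and 9.12, 11.94 and 12.53, and 10.98 and 11.39 in the same order (-3.47 and -2.42). Its second probe set differed by -2.26 between neutrophils and eosinophils. Ndufa9, a complex I subunit of the matrix arm, was at 7.26 and 6.81 in neutrophils against 8.91 and 9.03 in basophils (-1.94), and Ndufa4 was at 7.91 and 7.80 against 9.59 and 9.80 (-1.84). Sdhc (-1.90) and Ndufa2 (-1.90) were lower than in eosinophils. Ndufs3, a core subunit of complex I, and Atp5a1, the ATP synthase alpha subunit, were called against both (Ndufs3 -1.74 and -1.46, Atp5a1 -1.71 and -1.11). In contrast Mdh2, at 12.25 and 12.28 in neutrophils, lay above both basophil arrays (11.45 and 11.54). So did Ndufa8, Ndufb9, Ndufs1, Sdhb, Sdhd and Uqcrfs1, and none of these was called. These 7 of 40 members are a smaller share than the 33.4% of all genes with both neutrophil arrays above.

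The RNA quality measure moved with the calls against eosinophils. The control probe gap was 2.59 and 2.97 in neutrophils and 5.90 and 6.27 in eosinophils, and with it as a covariate 7 members were called in place of 14. Without neutrophil array 1 it was 9 against eosinophils and 6 against basophils. Of 35 further probe sets of 23 members, those with a mean of at least 5, 12 had the opposite sign to the one used between neutrophils and eosinophils, against 1 of 35 between SMP and cMoP. When the median above the floor was equalised, 3 members were called higher and 8 lower in neutrophils than in basophils, and 1 higher and 13 lower than in eosinophils. Further mitochondrial genes moved both ways between neutrophils and eosinophils. Of 16 mitochondrial ribosomal proteins 8 were lower, of 17 assembly factors 8 were lower and 2 higher, and of 13 further citric acid cycle and pyruvate genes 5 were lower and 4 higher. The assembly factor Ndufaf4 was at 2.30 and 2.47 in neutrophils and 8.62 and 9.18 in eosinophils, and Suclg2 at 2.55 and 2.63 against 7.70 and 8.10. Both lay at or next to the floor in neutrophils, so their fitted differences (-6.52 and -5.31) are limited by it. Pprc1 was at 3.89 and 3.47 against 8.23 and 8.62 (-4.75). Idh2, the NADP-dependent isocitrate dehydrogenase, went the other way, at 9.83 and 9.34 in neutrophils and 5.22 and 5.10 in eosinophils (4.43). GMP markers, given above, and platelet markers (19.57 to 20.13 in neutrophils, 32.14 to 35.96 in eosinophils) also moved with this comparison, and their part was not tested.

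Eosinophils against basophils gave 6 members lower and 1 higher, where 11.3% of all genes were lower and 9.36% higher. Ndufa10, a complex I subunit, was at 7.17 and 6.11 in eosinophils against 8.98 and 9.67 (-2.69, SE 0.49, adjusted p = 0.00156 in limma). Atp5b was at 9.05 and 8.54 against 9.84 and 10.44 (-1.35), and Suclg1, Idh3b, Fh1 and Atp5c1 were lower by -1.34, -1.28, -1.18 and -1.07. Sdhd was higher, at 10.82 and 10.96 against 9.72 and 9.68 (1.19, adjusted p = 0.0402), while its second probe set differed by -0.44. Over the members, 12 of 35 further probe sets with a mean of at least 5 had the opposite sign to the one used. Eosinophils lay above basophils on both arrays for 19 members (32.2% of all genes) and below for 12 (31.1%). The median difference was 0.37 over complex IV, 0.69 over complex II and -1.08 over the ATP synthase, and differences between complexes were not tested. GMP markers summed to 26.92 to 28.03 in basophils and 38.90 to 38.99 in eosinophils, and their part was not tested. The gap of basophils was 2.37 and 3.30, and with the gap as a covariate no member was called, Ndufa10 was at -1.79 and Atp5b at 0.31. Without basophil array 1 there were 4 calls, and without basophil array 2 or eosinophil array 2 there were 2. Equalising the median above the floor, which moved the median of all genes from 0.00 to 0.23, gave 3 higher and 4 lower.

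In the panel the lung arrays stood out. Each gene was centred on its mean over the 15 arrays, and the member median was 0.85 and 0.65 in the lung macrophage arrays, 0.66 in lung SatM and 0.22 in the lung Msr1-dull Ceacam1-dull cells. The 11 other arrays lay between -0.86 (spleen M2-like macrophages) and 0.17. All 40 members had a higher mean over the 4 lung arrays than over the 11 others, with a median difference of 0.80, where the median of all genes was 0.12. For 6 members all 4 lung arrays were above all 11 others, as for 4.17% of all genes, and for 8 the means differed by at least 1, as for 17.3%. Each tissue holds other sorts, so tissue and cell type are only partly separable in this comparison, and it has no test.

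Fh1 averaged 9.54 ± 0.71 (SD, n = 4) in the lung and 8.23 ± 0.68 (SD, n = 11) elsewhere. Suclg1 averaged 8.21 ± 0.17 in the lung and 6.98 ± 0.77 elsewhere, its lowest lung array (7.95) above its highest other (7.83). Ndufb8 behaved alike, with 11.04 the lowest in the lung and 10.99 the highest elsewhere. Ndufa4 showed the least, at 9.49 ± 1.0 and 9.45 ± 0.56. The control probe gap was 0.79 to 1.17 in the lung arrays and 1.02 to 5.10 in the others, and its part in the result was not tested.

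SatM were taken from 4 tissues, with 1 array each and no replicate. The lung array was above the spleen, bone marrow and blood arrays for 39 of 40 members, as for 38.3% of all genes, and by at least 1 for 6, as for 11.8%. The spleen array was the lowest of the 4 for 30 members and the blood array for 10. The lung array exceeded the mean of the others by a median of 1.03 over the members and 0.11 over all genes. Fh1 was at 9.73 in the lung, 8.14 in bone marrow, 7.49 in blood and 7.26 in spleen. Atp5b was at 11.20, 10.36, 9.76 and 9.38, and Ndufs8 at 10.61, 9.60, 9.41 and 8.72 in the same order. Ndufa4 was the exception, at 8.94 in the lung and 10.04 in bone marrow. Alveolar macrophage markers summed to 32.54 to 41.29 over the 4 SatM arrays and 41.76 to 62.21 in lung macrophages. Several other lists spread more widely over the 4 SatM arrays. B cell markers summed to 10.3 to 38.89 and GMP markers to 10.57 to 39.4. Macrophage markers summed to 18.51 to 43.39 and neutrophil markers to 21.37 to 40.36. The part of these markers in the result was not tested.

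**Figure D5:**
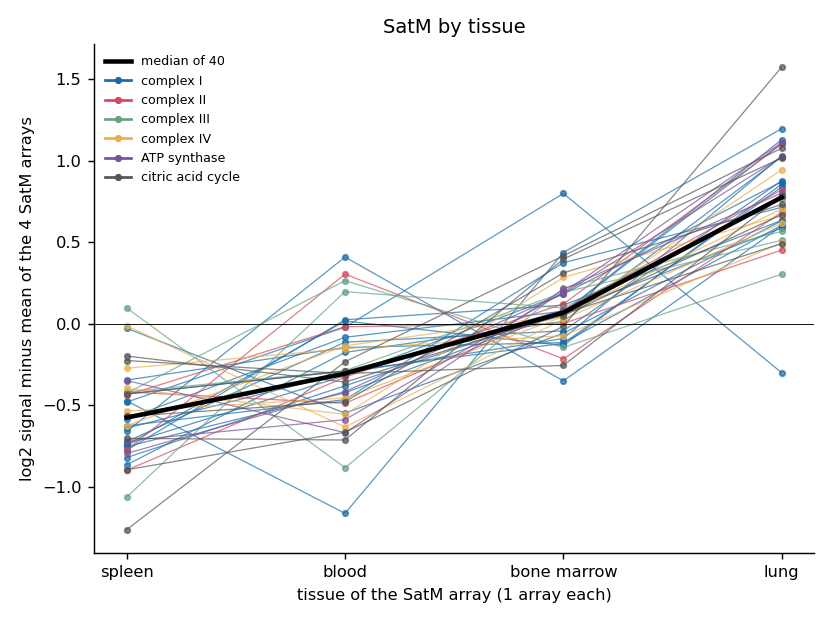
Log2 signal of the 40 members in SatM of 4 tissues, 1 array each, minus the member's mean over the 4 (y axis); thin lines are members coloured by complex and the black line is their median. The lung array is highest for 39 members, and the member that falls from bone marrow to lung is Ndufa4.

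The tests between cell types of the panel, which hold tissue as a term, gave few calls among the members. SatM against marker-negative cells gave 1, Idh3a, lower in SatM (-1.07, SE 0.28, adjusted p = 0.05 after rounding in limma), where 5.28% of all genes were lower and 4.94% higher. Idh3a was at 6.84, 7.94, 6.83 and 8.56 in SatM of spleen, bone marrow, blood and lung and at 8.13, 8.50 and 8.44 in marker-negative cells of the first 3 tissues, lower within each. The call was lost when the spleen, bone marrow or blood SatM array or the spleen or blood marker-negative array was left out, and 2 members were called without the lung SatM array. The marker-negative cells carry natural killer markers, as given above. M2-like macrophages against SatM gave no call, with 2 members below 0 at an unadjusted p under 0.05 in limma, where the calls over all genes came to 5.39% upward and 2.92% downward. In the spleen the M2-like array was the lowest of the panel by the member median (-0.86) and in bone marrow it was at 0.17. Without the lung SatM array 1 member was called.

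Lung macrophages against SatM gave no call among the members and 3 above 0 at an unadjusted p under 0.05 in limma, where 0.128% of all genes were called higher. Both lung macrophage arrays lay above all 4 SatM arrays for 16 members (16.2% of all genes) and below them for none (10.1%). This fit compares the 2 lung macrophage arrays with SatM of all tissues after allowing for tissue, and the lung term rests on the lung arrays of SatM and of the Msr1-dull Ceacam1-dull cells, the cell types also taken from another tissue. Without the lung SatM array, when the lung term rested on the Msr1-dull Ceacam1-dull cells, 8 members were called higher. The muscle-type isoform Cox7a1 was at 5.23 and 4.95 in the lung macrophages, at 2.75 in lung SatM and at the floor in SatM of the other tissues (fitted 2.46, adjusted p = 0.00205).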

How the data were processed

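The authors deposited 1 table of log2 values for 45101 probe sets on 35 arrays; the base of the logarithm was inferred from the range (2.30 to 16.02). Background correction, summarising and normalisation are not given in the sources used here. Between 43.6% and 48.3% of probe sets lay at the floor on each array, and arrays limit precision by their number. Each symbol was read from its probe set of highest mean (25 of 40 members have several). Genes above the array median on at least 2 arrays were fitted with limma 3.58.1 (R 4.3.3; lmFit, then eBayes with a trend): cell type and WT-titled set for 20 arrays (12077 genes, 10 residual degrees of freedom), cell type and tissue for 15 (11733 genes, 6). Calls needed a Benjamini-Hochberg adjusted p under 0.05 over all genes and a log2 difference of at least 1. The script was tested on simulated data. Members and lists were chosen with earlier results of these data known. Named genes were the called members without overlap, at most 5 each way with the largest differences, and up to 2 of each complex. Names came from the platform annotation (34945 probe sets with 1 symbol, 932 with several, left out). Alternatives covered scaling, probe sets, filter, model terms and left-out arrays; the control probe gap was added after seeing the data.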

Additional observations from a re-analysis of the deposited data

Results flagged for a closer look

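In groups of 4 arrays, 80 sets of values were tested for a single array far from the rest by Dixon's ratio at the 95% level, and 5 exceeded it. Chance alone marks about 1 in 20 groups. The first WT-titled cMoP array was low for 4 of them: Ndufb3 at 10.38 against 11.83 to 11.86 on the others, Sdhd at 9.44 against 10.32 to 10.44, Cox7a2 at 12.58 against 13.51 to 13.69, and Atp5o at 11.32 against 12.32 to 12.41. In SMP, Mdh2 was at 10.57 on the second array not titled WT, against 10.86 to 10.90.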

How the results depend on the processing

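Of 177 alternative counts over 14 results, 129 stayed within 1.5 times of the count given. For SMP against cMoP, equalising the median above the floor gave 17, the WT-titled arrays alone 5 and the others alone 17. For SatM against inflammatory monocytes, no filter gave 4 and no set term 0. For SatM against SMP, equalising gave 2, no set term 0, no fold threshold 2 and the compared groups alone 0. For GMP and MDP against cMoP, equalising gave 1. For basophils against SMP, no filter gave 0, the replicate block 0 and the compared groups alone 0. With the control probe gap, neutrophils against eosinophils gave 7 and eosinophils against basophils 0, and no set term gave 3 for the latter. For panel SatM against marker-negative cells, quantile normalisation, equalising, no filter and no tissue term each gave 0. The cause was not tested. Leaving out 1 array at a time gave 19 to 29 calls for SMP against cMoP (18 members called each time), 0 to 4 for SatM against inflammatory monocytes, 0 to 2 for SatM against SMP, 1 to 3 for inflammatory monocytes against cMoP, 0 to 1 for GMP and MDP against cMoP, 0 to 2 for basophils against SMP, 9 to 16 for neutrophils against eosinophils, 6 to 10 for neutrophils against basophils, 2 to 5 for eosinophils against basophils, 0 to 2 for SatM against marker-negative cells, 0 to 1 for M2-like macrophages and 0 to 8 for lung macrophages. Of 30 named gene results, 9 passed under every alternative; of their 428 alternatives 347 passed, 80 missed the threshold and 1 turned sign, Atp5b in eosinophils against basophils with the control probe gap (0.31).

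Nothing states whether shared replicate numbers pair the arrays, and the main fits treat them as unpaired. Deviations of same-numbered arrays correlated between -0.05 (inflammatory monocytes and SatM) and 0.23 (WT-titled cMoP and SMP), which does not decide it. With the replicate block the counts were 26 for SMP against cMoP, 11 for SatM against inflammatory monocytes, 15 and 10 for neutrophils against eosinophils and basophils, and 10 for eosinophils against basophils. Signals near the floor of 2.30, such as those of the further Idh3a probe sets in neutrophils, limit what can be compared.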

Other observations

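Ndufb9 was at 12.21 on the second SMP array and at 11.37 on the marrow Msr1-dull Ceacam1-dull array, and between 7.94 and 10.16 on the other 33 arrays. Uqcrc2, Ndufs7 and Ndufv1, chosen after their values were seen, differed between the WT-titled and other arrays of the same cell types. Uqcrc2 ranged from 9.26 to 11.70 on the WT-titled cMoP and SMP arrays and from 11.87 to 12.91 on the others of those types, Ndufs7 from 9.21 to 10.88 and from 11.61 to 12.49, and Ndufv1 had medians of 8.87 and 10.76. In the 15 panel arrays Uqcrc2 lay between 9.82 and 11.27, nearer to the WT-titled arrays.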
